A study of Homo sapiens with 18 samples.

Results

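PRAME, a cancer-testis antigen, was described here with 37 other cancer-testis and germline genes in G401 cells, an established malignant rhabdoid tumour line. The 38 genes were a named list and were matched by symbol among the 55765 genes of the deposited table, which held all of them. RNA was measured by poly(A)-selected, stranded, paired-end sequencing in 18 libraries, 3 for each of 6 groups. The line labelled WT was targeted at the AAVS1 safe harbour site and keeps RB1, while E1 and F2 are 1 clone each with biallelic deletion of RB1, which encodes the retinoblastoma protein, a brake on E2F-driven transcription. Each line was given 10 µM tazemetostat, which blocks the histone methyltransferase EZH2, or an equal volume of DMSO for 11 days, and the labels call the 3 cultures of a group biological replicates. Recovered depth ran from 25709489 to 39314860 reads per library. In DMSO, RB1 averaged 2694 normalized counts in WT against 648 in E1 and 839 in F2, where a normalized count is a gene's count over its library's size factor. SMARCB1, whose loss defines rhabdoid tumours, had no more than 3 reads in any library, and the 5 blood and endothelial markers in the table summed to at most 33.3 normalized counts per library. Of these, the endothelial marker CDH5 averaged at most 0.921 in the DMSO groups and 11.7, 7.31 and 26.5 in treated WT, E1 and F2.

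Cancer-testis genes are transcribed in testis and placenta, are silent in most other adult tissues, and are switched on again in many tumours. PRAME encodes a leucine-rich repeat protein that serves as a substrate receptor of a CUL2 ubiquitin ligase and has been described as a repressor of retinoic acid receptor signalling. The MAGE, SSX, PAGE, CTAG and SAGE families lie largely on the X chromosome and are classically held silent by promoter DNA methylation. The autosomal germline genes include parts of the synaptonemal complex, the meiotic cohesin complex and the piRNA pathway, and many of them are repressed in somatic cells by the PRC1.6 complex, which reaches promoters through E2F6 and MGA with MAX.

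Few of the 38 genes were expressed in these cells. Among those with enough counts for a test, PRAME changed most under tazemetostat, though it reached that level only through its DMSO libraries. PRAME fell in all 3 lines, 24.3-fold in WT, 9.54-fold in E1 and 14.8-fold in F2. SYCP2, a synaptonemal complex protein, fell 3.43-fold in WT, and STAG3, a meiotic cohesin subunit, fell 2.4-fold there. PIWIL1 and MAEL act in the piRNA pathway and were near absent in DMSO, and both stood out only through their treated libraries. PIWIL1 had 4 to 11 reads in each treated library of all 3 lines, and MAEL had 7 to 13 in those of the clones. Of the 38 genes 12 had 0 reads in every library, and the 19 genes of the MAGE, SSX, PAGE, CTAG and SAGE families summed to 0 to 13 reads per library.

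Promoters of 6 genes whose values are described below are shown because their starts differ in 2 motifs of the germline repressors named above. TCCCGC is the E2F-type motif and CACGTG is the E-box bound by MGA with MAX, and the letters were searched on both strands in the 250 bases before each RefSeq start (GRCh38.p14). Capitals mark the matches, each line runs 5′ to 3′ on the gene's strand, and only the longest stretch without annotated UTR is printed. STAG3 and PRAME are shown at the farthest upstream of their listed starts and MAEL at the start that holds a match. The other STAG3 start also held 1 CACGTG match beside 1 TCCCGC match, and the farthest upstream MAEL start held neither. The 6 genes were picked by hand. SMC1B, also described below, is not shown, and its window held 2 TCCCGC matches and no CACGTG match.
PRAME (chr22:22559341-22559515, minus strand): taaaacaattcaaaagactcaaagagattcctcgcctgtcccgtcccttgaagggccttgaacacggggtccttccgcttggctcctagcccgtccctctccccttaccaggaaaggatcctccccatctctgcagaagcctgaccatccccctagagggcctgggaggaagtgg
SYCP2 (chr20:59933656-59933763, minus strand): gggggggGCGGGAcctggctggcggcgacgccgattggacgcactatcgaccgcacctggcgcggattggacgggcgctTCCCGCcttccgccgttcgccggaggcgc
STAG3 (chr7:100177474-100177562, plus strand): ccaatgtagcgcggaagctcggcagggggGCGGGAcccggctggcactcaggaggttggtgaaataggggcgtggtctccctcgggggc
STK31 (chr7:23709969-23710166, plus strand): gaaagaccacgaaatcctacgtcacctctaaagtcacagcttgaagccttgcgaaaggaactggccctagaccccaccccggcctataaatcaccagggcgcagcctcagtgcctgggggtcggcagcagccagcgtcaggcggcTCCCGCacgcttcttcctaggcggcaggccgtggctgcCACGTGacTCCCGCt
MAEL (chr1:166989030-166989088, plus strand): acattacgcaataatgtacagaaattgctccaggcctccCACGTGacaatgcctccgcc
PIWIL1 (chr12:130337637-130337886, plus strand): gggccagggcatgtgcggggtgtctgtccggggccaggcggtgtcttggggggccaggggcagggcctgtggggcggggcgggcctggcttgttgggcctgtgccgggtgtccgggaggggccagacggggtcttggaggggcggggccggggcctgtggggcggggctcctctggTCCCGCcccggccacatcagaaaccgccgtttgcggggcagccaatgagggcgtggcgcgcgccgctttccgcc
PRAME had no match at any of its 3 listed starts, SYCP2 had 2 TCCCGC matches, and STK31 had 2 TCCCGC matches and 1 CACGTG match in the stretches shown. Promoters were found for 33 of the 38 genes, with 50 starts. TCCCGC was in 24.0% of these 50 windows and in 23.5% of all 35116 RefSeq windows of the same length. CACGTG was in 20.0% of the 50 windows and in 6.34% of all windows, and both motifs were in 6.0% and 1.87%. Counted by gene, CACGTG was in 8 of the 33 genes and in 2110 of all 27305. Windows of 1 gene can overlap, as for BRDT and TDRD1, so the same match can count more than once. A match is a string of letters and was not tested as a binding site.

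Of the 38 genes, 3 (7.89%) had a mean of at least 10 normalized counts over the 18 libraries and entered the test, against 16154 of the 55765 genes of the table. These were PRAME, SYCP2 and STAG3. A further 4 genes, MAEL, PIWIL1, SMC1B and STK31, had a lower mean but more than 3 reads in every library of at least 1 group. In 9 genes (MAGEA3, MAGEA11, CTCFL, SYCP3, TEX101, BRDT, TDRD9, PIWIL2 and HORMAD1) single libraries exceeded 3 reads but no whole group did. Another 10 (MAGEA6, MAGEB1, SSX1, PAGE2, SAGE1, PASD1, DAZL, DDX4, SYCP1 and TDRD1) had some reads but never more than 3 in a library. The other 12 genes had no read in any of the 18 libraries, and 36.6% of the table was at 0 in the same way. At the summed depth of all libraries a count of 0 allows up to 0.00488 reads per 1000000, a limit that reflects counting error alone because PCR copies could not be separated. It does not hold for genes such as SSX2 and CTAG2, whose reads may have been lost to near-identical copies.

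**Figure D1:**
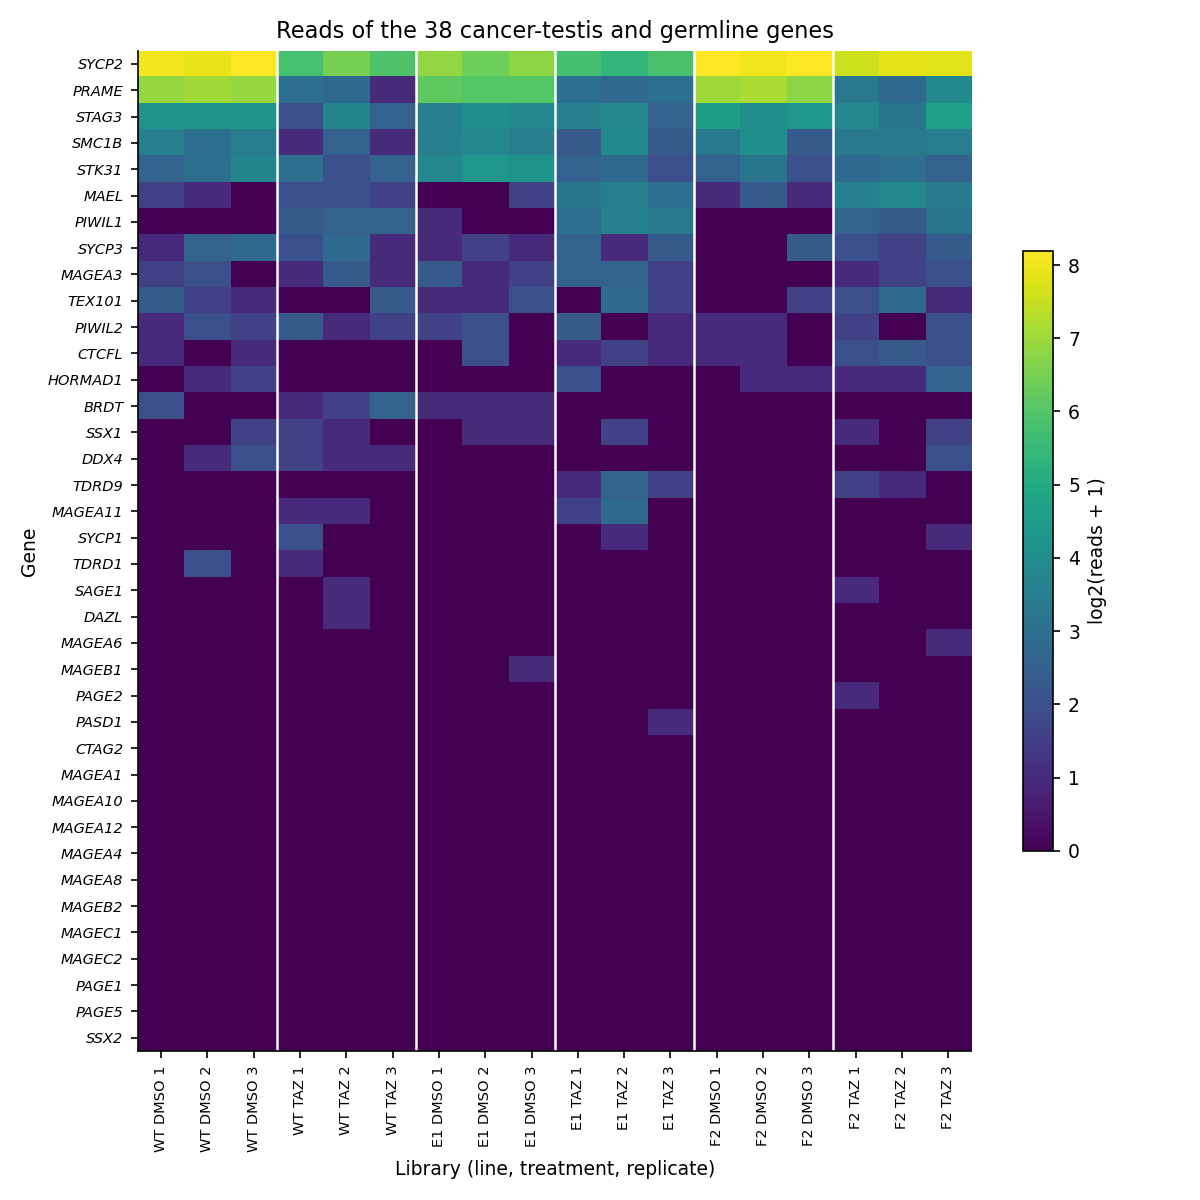
Reads of the 38 genes (rows, ordered by total) in the 18 libraries (columns, 3 per group), as log2(reads + 1). Only the uppermost rows carry signal, and the 12 lowest rows have 0 reads in every library.

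PRAME was measured at 102, 121 and 111 normalized counts in the 3 WT DMSO libraries and at 6.9, 5.61 and 1.23 under tazemetostat. The treated libraries were all far below the DMSO libraries, and the lowest of them rested on 1 read. In E1 the gene was at 63.4, 62.7 and 63.3 in DMSO and at 7.45, 5.8 and 6.6 under tazemetostat. In F2 it was at 132, 145 and 132 in DMSO and at 8.74, 6.06 and 12.9 under tazemetostat. Treated cells therefore kept 4.12% of the DMSO mean in WT but 10.5% in E1 and 6.77% in F2, and in no line did treated and DMSO libraries overlap. Treated libraries lay wholly below the DMSO libraries in 32.9% of all tested genes for WT, 19.7% for E1 and 28.8% for F2. The gene moved from above 30.9% of tested genes to above 0.483% in WT, from 26.3% to 1.08% in E1 and from 32.3% to 1.64% in F2. In bulk RNA, fewer cells with a transcript and less of it per cell cannot be told apart.

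The fall passed the threshold in each line, set at an adjusted p below 0.05 together with a log2 change of 1 or more in size. PRAME reached the mean needed for the test only through its DMSO libraries. Its treated means were 4.58, 6.62 and 9.25 normalized counts in WT, E1 and F2. The limma calls are therefore not read as support on their own. With edgeR on genes with a mean of at least 1, the log2 changes were -4.52, -3.26 and -3.89. The edgeR adjusted p was at most 2.3e-10, and every treated library exceeded that lower limit, at 1.23 or more. On the log2(value + 1) scale, PRAME fell by 4.52 ± 0.34 (SE, n = 3 per group) in WT, with a limma adjusted p of 1.1e-09. The log2 change was -3.08 ± 0.34 in E1 (limma adjusted p = 3.8e-07) and -3.80 ± 0.34 in F2 (limma adjusted p = 1.7e-08). These 3 calls held in all 17 alternatives run for each. For a single gene, an exact permutation test (two-sided) on 3 and 3 libraries cannot go below 0.1, which is the value it gave in each line.

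**Figure D2:**
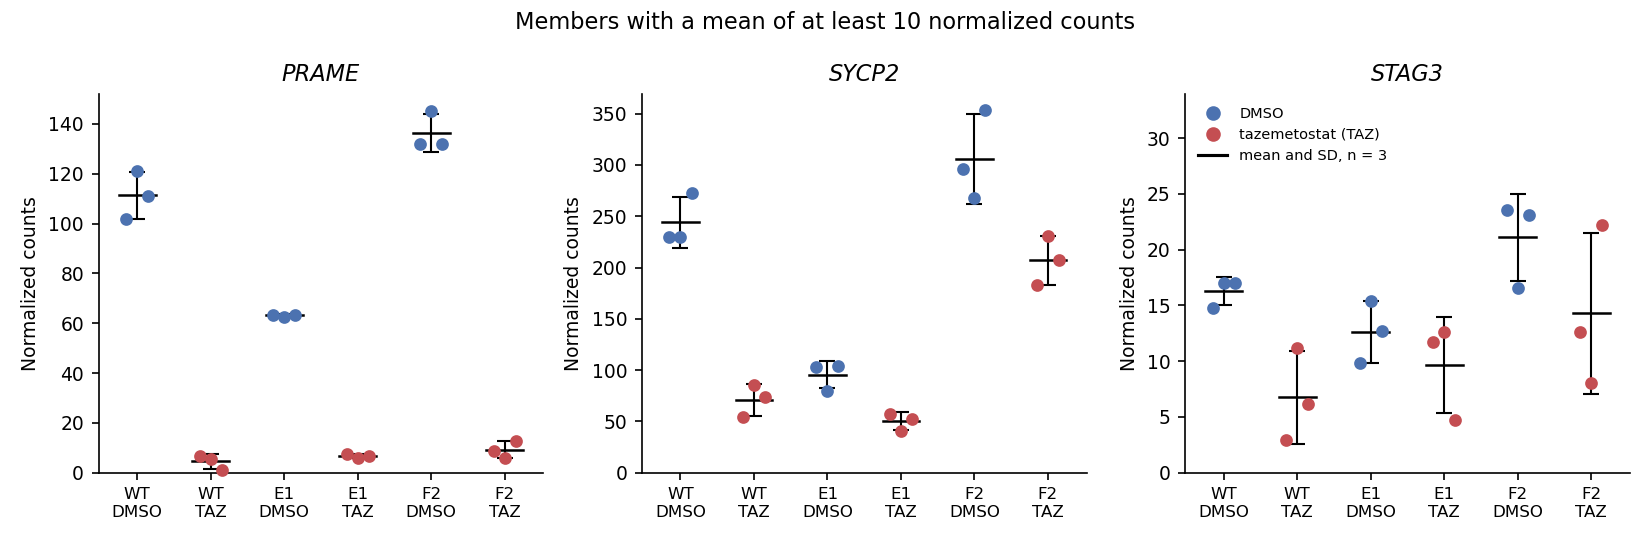
Normalized counts of PRAME, SYCP2 and STAG3 in each library (points), by line and treatment, with the mean and SD (n = 3). PRAME lies at 62.7 or more in every DMSO library and at 12.9 or less in every treated library, while SYCP2 under tazemetostat stays at 183 or more in F2.

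PRAME also differed between the lines before treatment. In DMSO, E1 held 56.8% of the WT mean and 46.3% of the F2 mean. The difference from F2 passed the threshold (log2 difference -1.10, limma adjusted p = 0.017), while that from WT did not (-0.80, limma adjusted p = 0.1). F2 differed from WT by 0.30 in DMSO (limma adjusted p = 0.59, 95% interval -0.42 to 1.01).

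Under tazemetostat, PRAME averaged 4.58 ± 2.97 normalized counts (SD, n = 3) in WT against 6.62 ± 0.825 in E1 and 9.25 ± 3.48 in F2. The libraries of the 3 lines overlapped there. F2 was higher than WT by 1.01 on the log2 scale (limma adjusted p = 0.018), a call lost in 7 of 17 alternatives, among them without WT tazemetostat replicate 3 (0.45) and without F2 tazemetostat replicate 3 (0.76). E1 differed from WT by 0.64 (limma adjusted p = 0.13), which did not pass.

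The response difference is the log2 change under tazemetostat of one line less that of another. For PRAME it was 1.44 ± 0.48 between E1 and WT (SE), with a limma adjusted p of 0.027, so the gene fell less in E1 than in WT. The 95% interval ran from 0.42 to 2.45. The call was lost in 6 of 23 alternatives, and it depended on the WT tazemetostat library with 1 read: without that library the difference was 0.87 (limma adjusted p = 0.043), under the size limit. The same library stood apart in other genes, with POU5F1 at 39.4 normalized counts against 0.985 and 1.87 in the other treated WT libraries and KIT at 30 reads against 15 and 16. The part of this in the difference was not tested. Without WT DMSO replicate 2 it was 1.38 (limma adjusted p = 0.056), and without E1 tazemetostat replicate 1 it was 1.36 (limma adjusted p = 0.052). The response difference between F2 and WT was 0.72 (limma adjusted p = 0.3, 95% interval -0.30 to 1.73). That between E1 and F2 was also 0.72 (limma adjusted p = 0.38), so neither passed.

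SYCP2, which builds the lateral elements of the synaptonemal complex that holds paired meiotic chromosomes, had the most reads of the 38 genes. Its DMSO libraries were at 230, 230 and 273 normalized counts in WT, 103, 80.1 and 104 in E1, and 296, 268 and 354 in F2. Under tazemetostat they were at 54.2, 85.1 and 73.9 in WT, 57.5, 40.6 and 52.8 in E1, and 183, 231 and 207 in F2. Treated libraries lay below DMSO libraries in each line, as they did in 32.9%, 19.7% and 28.8% of all tested genes for WT, E1 and F2. Per kilobase of exon, SYCP2 in WT DMSO was at a mean level of 37.7 normalized counts and PRAME at 29.5, whereas STAG3 was at 1.9.

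The fall of SYCP2 in WT was 1.79 ± 0.18 on the log2 scale (limma adjusted p = 5.9e-08), to 29.1% of the DMSO mean. In E1 the log2 change was -0.92 ± 0.18 (limma adjusted p = 0.00029) and in F2 -0.56 ± 0.18 (limma adjusted p = 0.013), both under the size limit. The response difference between F2 and WT was 1.23 ± 0.25 (limma adjusted p = 0.0013, 95% interval 0.70 to 1.75) and passed in every alternative run, so SYCP2 fell less in F2. Between E1 and WT it was 0.87 ± 0.25 (limma adjusted p = 0.012), under the size limit, and between E1 and F2 it was -0.36 (limma adjusted p = 0.4).

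SYCP2 in DMSO was lower in E1 than in WT by 1.35 ± 0.18 on the log2 scale (limma adjusted p = 1.5e-05), at 39.2% of the WT mean. It was also lower in E1 than in F2, with a log2 difference of -1.67 (limma adjusted p = 6.9e-07). F2 and WT differed by 0.32 in DMSO (limma adjusted p = 0.23, 95% interval -0.05 to 0.69). Under tazemetostat, F2 was 2.91-fold higher than WT, with a log2 difference of 1.55 (limma adjusted p = 8.9e-07), and E1 differed from WT by -0.48 (limma adjusted p = 0.031), under the size limit. In both conditions the clone E1 held the lowest SYCP2 mean of the 3 lines and the clone F2 the highest.

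FAM217B starts head to head with SYCP2 on the opposite strand. FAM217B averaged 2259 ± 81.6 normalized counts in WT DMSO and 2251 ± 124 in WT tazemetostat (SD, n = 3), and its log2 change was -0.01 (limma adjusted p = 0.94). It passed the threshold in none of the 11 contrasts, although SYCP2 passed in 5 of them.

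STAG3, a cohesin subunit of meiotic cells, was the lowest of the tested genes. Its libraries were at 14.8, 17.0 and 17.0 normalized counts in WT DMSO and at 2.96, 11.2 and 6.16 in WT tazemetostat. The WT fall was 1.30 ± 0.41 on the log2 scale (limma adjusted p = 0.0095). Treated and DMSO libraries did not overlap in WT but did in both clones. In WT, treated libraries lay wholly below the DMSO libraries in 32.9% of all tested genes. The call was lost with a pseudocount of 5 (-0.91) and without WT tazemetostat replicate 1, when it was -0.88 (limma adjusted p = 0.071). In E1 STAG3 went from 12.6 ± 2.81 to 9.67 ± 4.31 (log2 change -0.43, limma adjusted p = 0.41), and in F2 from 21.1 ± 3.88 to 14.3 ± 7.21 (log2 change -0.62, limma adjusted p = 0.22). Under tazemetostat F2 exceeded WT by 1.02 (limma adjusted p = 0.043), a call lost in 12 of 17 alternatives. Without WT tazemetostat replicate 1 the difference was 0.60, without F2 tazemetostat replicate 3 it was 0.66, and in the fit blocked on replicate number the limma adjusted p was 0.051. Of the 50-base windows of its transcripts, 30.9% also occur in other genes, 16.0% in PVRIG. STAG3 overlaps the gene listed as GATS on the opposite strand, which averaged 346 normalized counts in WT DMSO and 482 in WT tazemetostat. Whether the counting used the strand is not given in the sources used here.

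**Figure D3:**
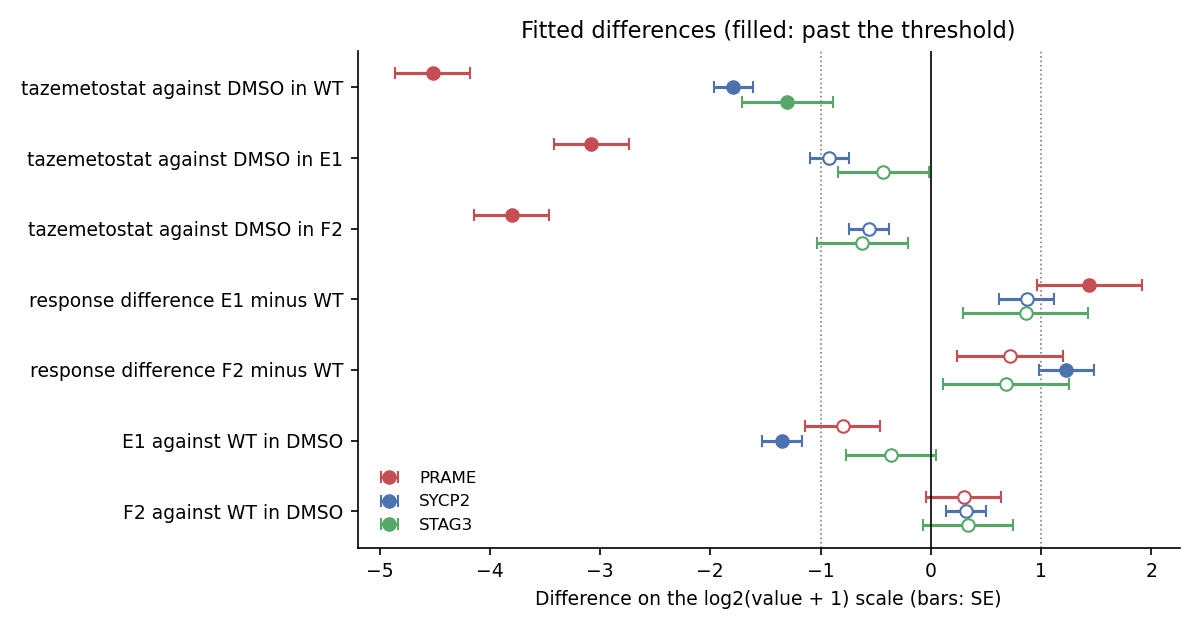
Fitted differences of PRAME, SYCP2 and STAG3 with their SE on the log2(value + 1) scale in 7 contrasts. Filled points passed the threshold, and dotted lines mark a difference of 1. All 3 genes lie on the negative side for tazemetostat in each line, and all 3 response differences against WT lie on the positive side for both clones.

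Counting these calls, 3 of the 3 tested genes fell in WT, where 6.77% of all tested genes fell and 14.5% rose. In E1 and F2 only PRAME of the 3 fell, where 3.78% and 3.71% of all tested genes fell and 11.3% and 13.3% rose. PRAME entered this test only through its DMSO libraries, so nothing is read from these counts of lower genes that hold it. E1 against WT in DMSO gave 1 lower gene, SYCP2, against 2.69% of all tested genes, and F2 against WT in DMSO gave none against 2.98% in either direction. Neither PRAME, SYCP2 nor STAG3 passed in E1 against WT under tazemetostat, where 11.3% of genes did, while all 3 were higher in F2 than in WT under tazemetostat, where 7.31% of genes were. That last count fell to 1, SYCP2, with edgeR or DESeq2 in place of limma. The response difference passed for PRAME between E1 and WT (4.79% of tested genes higher) and for SYCP2 between F2 and WT (4.82% higher). In E1 against F2 in DMSO, PRAME and SYCP2 were lower, as were 3.52% of tested genes, and none of the 3 response differences between E1 and F2 passed, as against 5.81% of tested genes. The contrasts that share a group are not independent. The median log2 change of all tested genes was 0.03, 0.02 and 0.02 in WT, E1 and F2, and with every library scaled to the same total it was -0.12, -0.04 and -0.01.

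The genes below that mean were examined by their reads and by edgeR's quasi-likelihood test on genes with a mean of at least 1, an alternative chosen after seeing the data. It took in 22871 genes, 12 of them from the list of 38. With tazemetostat 1 of the 12 rose and 4 fell in WT (16.3% and 6.64% of all genes tested this way), 2 rose and 2 fell in E1 (12.6% and 3.86%), and 3 rose and 1 fell in F2 (14.9% and 3.85%). The genes that fell were PRAME in all lines, SYCP2, STAG3 and SMC1B in WT, and STK31 in E1. PIWIL1, counted as higher in each line, had a mean of 0.0992 in the DMSO libraries and entered only through its treated libraries. Nothing is read from its calls or from the counts of higher genes that hold it.

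PIWIL1, an Argonaute-family protein that binds piRNAs in the testis, had 0 reads in every DMSO library of WT and F2, and at most 1 in E1. Under tazemetostat it had 4, 5 and 5 reads in WT, 7, 11 and 9 in E1, and 5, 4 and 8 in F2. Every treated library was above every DMSO library. Set against 3 reads per library, PIWIL1 was at least 1.78-fold higher in treated WT cells; the bound was at least 3.13-fold higher for E1 and at least 1.66-fold higher for F2. Treated libraries lay wholly above the DMSO libraries in 39.3%, 27.0% and 33.6% of the genes tested by limma in these lines. PIWIL1 itself was not among those genes. An exact permutation test (two-sided) gave 0.1 in each line, the smallest value it can give here. PIWIL1 was singled out only through its treated libraries, so neither the separation nor this test is read as support.

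MAEL, a piRNA pathway protein of germ cell granules, averaged 1.22 normalized counts in the DMSO libraries. It had 8, 10 and 7 reads in treated E1 and 0, 0 and 2 in DMSO, so it was at least 2.92-fold higher (edgeR adjusted p = 0.00087). In F2 it went from 1, 4 and 1 reads to 11, 13 and 9, a 5.03-fold rise of the normalized mean (edgeR adjusted p = 0.0051). Without F2 DMSO replicate 2, which had the 4 reads, that group was at the floor and MAEL was at least 3.19-fold higher. In WT it went from 2, 1 and 0 reads to 3, 3 and 2, both within the floor of 3 reads (edgeR adjusted p = 0.18). MAEL thus passed in the 2 clones and not in WT, but its response differences did not pass (2.00 for E1 minus WT, edgeR adjusted p = 0.34, and 0.75 for F2 minus WT, edgeR adjusted p = 0.8). Under tazemetostat it was higher than in WT by at least 2.62-fold in E1 (edgeR adjusted p = 0.046) and at least 3.4-fold in F2 (edgeR adjusted p = 0.01). None of the other piRNA pathway genes, PIWIL2, TDRD1, TDRD9 and the helicase DDX4, exceeded 3 reads in every library of a group.

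**Figure D4:**
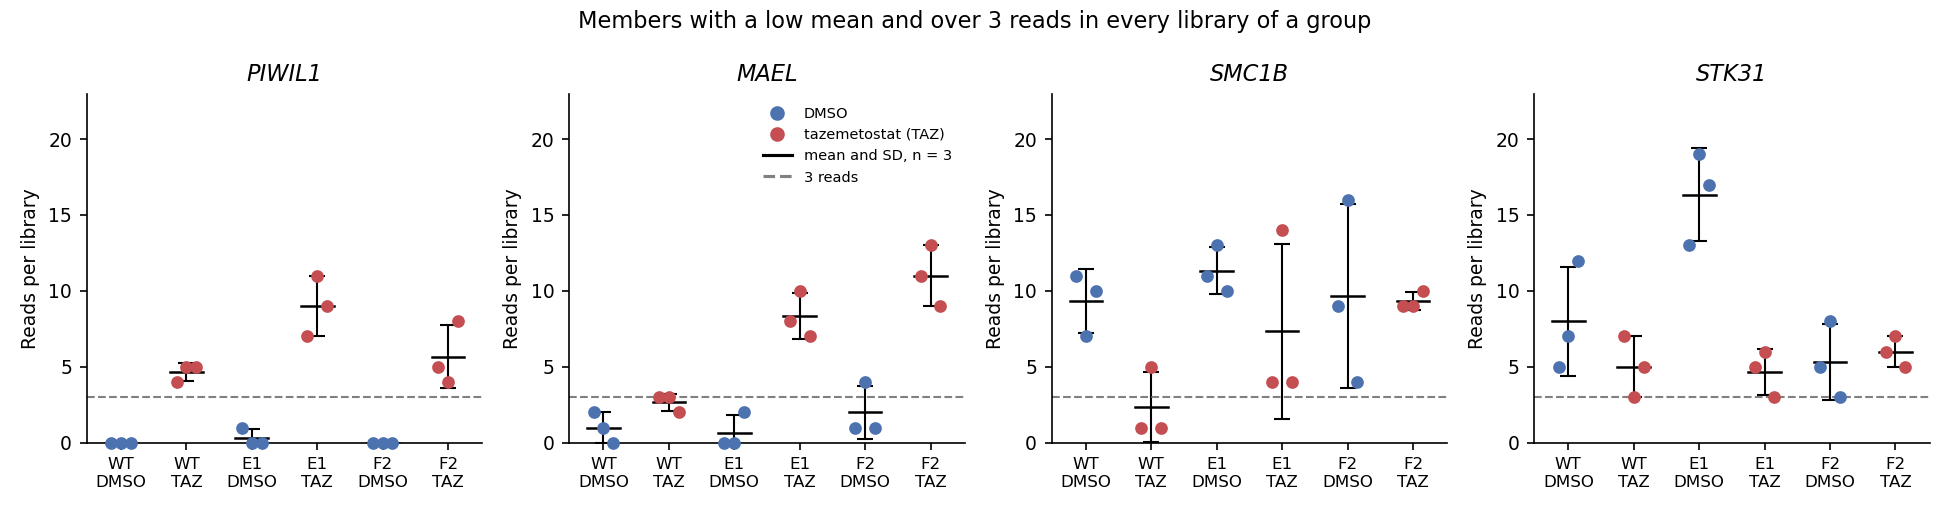
Reads per library of PIWIL1, MAEL, SMC1B and STK31 (points), by line and treatment, with the mean and SD (n = 3) and a dashed line at 3 reads. PIWIL1 is at 0 or 1 read in each DMSO library and at 4 to 11 in each treated one, and MAEL rises above the line in treated E1 and F2.

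SMC1B, the meiotic counterpart of the cohesin subunit SMC1A, had 11, 7 and 10 reads in WT DMSO and 1, 5 and 1 in WT tazemetostat. Its normalized mean fell 3.72-fold there (edgeR log2 change -1.80, adjusted p = 0.018). Without WT tazemetostat replicate 2, which had the 5 reads, the treated group was at the floor and SMC1B was at least 2.57-fold lower; without 1 of the other libraries the fold was 2.9 to 4.15. In E1 it went from 11, 13 and 10 reads to 4, 14 and 4 (edgeR adjusted p = 0.38), and in F2 from 9, 16 and 4 to 9, 9 and 10 (edgeR adjusted p = 0.73). The libraries of both clones overlapped between treatments. Under tazemetostat SMC1B was higher in F2 than in WT by 1.85 on the log2 scale (edgeR adjusted p = 0.02). Its response differences did not pass, at 1.23 for E1 minus WT (edgeR adjusted p = 0.32) and 1.56 for F2 minus WT (edgeR adjusted p = 0.21).

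RIBC2 starts head to head with SMC1B on the opposite strand. In WT, RIBC2 averaged 180 ± 23.6 normalized counts in DMSO and 58.3 ± 6.68 under tazemetostat (SD, n = 3), and its log2 change of -1.61 passed (limma adjusted p = 4.9e-10). In E1 it was at 298 and 228 (log2 change -0.38) and in F2 at 327 and 309 (-0.08). Its response differences passed, at 1.23 for E1 minus WT (limma adjusted p = 1.2e-05) and 1.53 for F2 minus WT (limma adjusted p = 1.5e-06). Both genes of this pair were called lower in WT, while SYCP2 and FAM217B were not called together in any contrast.

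**Figure D5:**
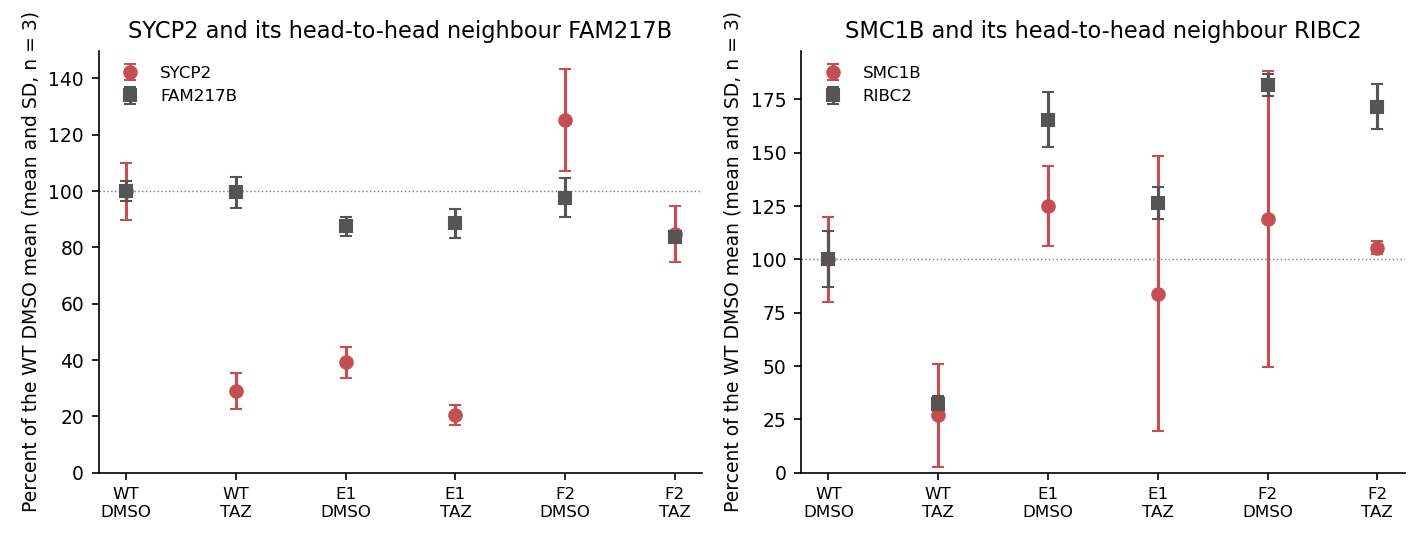
SYCP2 with FAM217B and SMC1B with RIBC2, as percent of each gene's WT DMSO mean, with the mean and SD (n = 3) in each group. FAM217B stays near 100 in WT and RIBC2 drops in treated WT cells, with wide error bars for SMC1B in E1 tazemetostat and F2 DMSO.

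STK31, a kinase-like protein of the testis with a tudor domain, was highest in E1 DMSO. It had 13, 19 and 17 reads in E1 DMSO, 5, 7 and 12 in WT DMSO, and 5, 8 and 3 in F2 DMSO. In E1 it fell 3.33-fold with tazemetostat, to 5, 6 and 3 reads (edgeR log2 change -1.74, adjusted p = 0.0026). It did not pass in WT (edgeR adjusted p = 0.4) or F2 (edgeR adjusted p = 0.97). In DMSO, E1 exceeded F2 by 1.39 (edgeR adjusted p = 0.018) and WT by 1.05 (edgeR adjusted p = 0.079, not past). The response differences did not pass, at -1.22 for E1 minus WT (edgeR adjusted p = 0.22) and -1.71 for E1 minus F2 (edgeR adjusted p = 0.14).

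Between lines, the same edgeR test called 1 of the 12 genes lower in E1 than in WT in DMSO (2.16% of all genes tested this way), and none in F2 against WT (2.29% in either direction). Under tazemetostat 1 was higher in E1 than in WT (5.31%) and 4 in F2 than in WT (7.22%). The latter 4 include CTCFL, which had a mean of 0.715 without the treated F2 libraries and so entered through them. In E1 against F2 in DMSO 2 were higher (3.59%) and 2 lower (3.08%). SYCP2 passed for the response difference of F2 minus WT (2.95% higher), and none of the 12 passed for E1 minus WT (6.35% in either direction) or E1 minus F2 (3.03%). The PRAME response difference between E1 and WT was 1.26 there, with an edgeR adjusted p of 0.059.

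The MAGE, SSX, PAGE, CTAG and SAGE genes numbered 19, and their reads summed to between 0 and 13 per library. MAGEA1, MAGEA4, MAGEA8, MAGEA10, MAGEA12, MAGEB2, MAGEC1, MAGEC2, SSX2, CTAG2, PAGE1 and PAGE5 had none. The sums were 2 to 3 in WT DMSO, 1 to 7 in WT tazemetostat, 2 to 4 in E1 DMSO, 2 to 13 in E1 tazemetostat, 0 in all 3 F2 DMSO libraries, and 2 to 6 in F2 tazemetostat. These ranges touch or overlap between treatments in WT and E1, and do not overlap in F2. MAGEA3 had at most 5 reads in a library and MAGEA11 at most 6, the latter in 1 treated E1 library. The edgeR test called MAGEA3 higher in F2 with tazemetostat (adjusted p = 0.04) and in E1 over F2 in DMSO (adjusted p = 0.044), calls that rest on F2 DMSO libraries with 0 reads and no more than 5 reads elsewhere. MAGEA3 shares 56.5% of its 50-base windows with other genes, 54.9% with MAGEA6. Reads that fit both copies could have been dropped or split, as they could for SSX2 (100% shared), MAGEA6 (53.9%), CTAG2 (43.1%) and PAGE2 (38.6%), so a 0 in these genes is not a measured absence.

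The remaining germline genes stayed at a few reads. SYCP3, a partner of SYCP2 in the lateral elements, had 0 to 6 reads per library and overlaps CHPT1 on the opposite strand, a gene with a mean of 1080 normalized counts. SYCP1, which forms the transverse filaments of the same complex, never exceeded 3 reads, and neither did the RNA-binding protein DAZL. HORMAD1, a meiotic chromosome axis protein, had at most 5 reads, and BRDT, the testis bromodomain protein, had at most 5. CTCFL, the germline paralogue of CTCF, had 3 to 4 reads in treated F2 and 0 in treated WT, all near the floor of 3. TEX101, a testis surface glycoprotein, had 0 to 6 reads, and TDRD9, a tudor-domain helicase of the piRNA pathway, had reads only in treated clones, at most 5. DDX4 lies opposite SLC38A9, which averaged 724 normalized counts over all libraries.

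Summed over the 35 untested genes, the reads per 1000000 reads of a library were 0.961 ± 0.182 in WT DMSO and 0.895 ± 0.0346 in WT tazemetostat (SD, n = 3). They were 1.10 ± 0.19 and 1.42 ± 0.464 in E1, and 0.700 ± 0.25 and 1.53 ± 0.101 in F2. Only in F2 did the treated libraries all lie above the DMSO libraries, at 1.44 or more against 0.987 or less. These sums rest on 15 to 69 reads per library. They include PIWIL1 and MAEL, which stood out only through their treated libraries, so no rise of the 35 genes as a set is read from them. Germ cell and pluripotency markers were measured beside them: of 9, NANOG, TFAP2C, SOX17 and UTF1 had at most 3 reads in every library. PRDM1 rose from 0 to 336 normalized counts in WT, from 0.298 to 149 in E1 and from 0 to 473 in F2, and KIT, below the mean needed for the test, was at 0 in all DMSO groups and at 22.2, 21.8 and 15.9 under tazemetostat. The summed level of the 9 markers was 1990 to 2276 in WT DMSO and 2020 to 2200 in WT tazemetostat, 2419 to 2467 and 2153 to 2573 in E1, and 1491 to 1726 and 3118 to 3250 in F2, most of it LIN28A. Of the 9 markers 3 were tested, PRDM1, NANOS3 and LIN28A, with 2, 2 and 1 higher in WT, E1 and F2 and none lower. Of all tested genes 14.5%, 11.3% and 13.3% rose in these lines. PRDM1 averaged at most 0.298 in the DMSO groups and entered the test only through its treated libraries. Nothing is read from its calls or from the marker counts that hold it. NANOS3 rose in WT (log2 change 1.09) and E1 but was under the size limit in F2 (0.66). The log2 changes of LIN28A were -0.34, -0.20 and 0.77, under that limit in each line. The part of these markers in the higher reads of PIWIL1 and MAEL was not tested.

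Other genes of these pathways were read from background lists. Beside them, 14.5%, 11.3% and 13.3% of all tested genes rose in WT, E1 and F2, 6.77%, 3.78% and 3.71% fell, and the medians were 0.03, 0.02 and 0.02. Without the size limit 64.2%, 46.8% and 52.2% of all tested genes passed. Of 85 further cancer-testis genes, 12 were tested. In WT 1 rose and 6 fell, in E1 1 rose and none fell, and in F2 1 rose and 1 fell, with medians of -0.96, -0.05 and -0.13 on the log2 scale. The genes with the largest changes included the mitotic kinase PBK (-1.59 in WT, limma adjusted p = 1.8e-10) and the kinesin KIF2C (-1.39, limma adjusted p = 5.2e-13), which act in dividing cells and are not restricted to the germline. IGF2BP3, an mRNA-binding protein, fell in WT (-1.35, limma adjusted p = 1.1e-11) and F2 (-1.23, limma adjusted p = 4.6e-11). Of 81 further germline genes 18 were tested, with 3 higher and 5 lower in WT and 3 higher and 3 lower in each clone, and medians of 0.06, 0.02 and -0.01. TEX15, needed for meiotic recombination and piRNA-directed silencing, fell in all 3 lines (log2 changes -1.96, -1.05 and -1.16), and its adjusted p in limma was at most 1.5e-07. MEIOB, a meiotic single-strand DNA-binding protein, fell by 1.54 in WT (limma adjusted p = 5.2e-09). ZP3, an egg coat protein, rose by 2.37, 1.06 and 2.03. Of 6 tested type II MAGE genes, which are broadly expressed, none passed in any line, while without the size limit 3, 2 and 3 did.

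Repressors of germline genes were measured too. Of all tested genes 6.77%, 3.78% and 3.71% fell in WT, E1 and F2. Of 20 PRC1.6 and partner genes, CBX3 alone fell in WT (log2 change -1.13, limma adjusted p = 6.1e-09), none passed in E1, and TFDP2 alone fell in F2 (-1.02, limma adjusted p = 1.7e-10). At an adjusted p without the size limit 14, 13 and 9 of the 20 passed, beside 64.2%, 46.8% and 52.2% of all tested genes. Of 7 tested DNA methylation genes 3, 1 and 1 fell and none rose. TET1, which oxidises methylated cytosine, fell by 2.67, 2.00 and 2.07 in the 3 lines, and the methyltransferase DNMT3B changed by -1.49, -0.99 and -0.98, past the size limit in WT.

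Around PRAME itself, CUL2, the scaffold of its ligase, changed by -1.02, -0.69 and -0.91 (limma adjusted p = 3.6e-09 in WT). It was the only one of 4 tested ligase genes to pass, in WT, where 6.77% of all tested genes fell. Of 16 tested genes of retinoic acid receptors, metabolism and known targets, 8 rose in each line and 1 fell in F2. Of all tested genes 14.5%, 11.3% and 13.3% rose in WT, E1 and F2, and 3.71% fell in F2. The medians were 1.19, 0.73 and 0.95 against 0.03, 0.02 and 0.02 for all tested genes. The list was chosen with earlier results of these data known. ALDH1A1, which makes retinoic acid, went from 0 in every DMSO library to a mean of 1866 normalized counts in treated WT, with 393 in treated E1 and 569 in treated F2. ALDH1A1 entered the test only through its treated libraries, so nothing is read from its rise, and the counts and medians above hold it. TGM2, a known retinoid target, rose by 4.30, 3.96 and 4.80, and NRIP1, a nuclear receptor corepressor, by 1.54, 3.42 and 3.14. STRA6, a retinol transporter, rose by 2.35, 3.42 and 6.53 from DMSO means of 7.03, 19.7 and 2.52 normalized counts in WT, E1 and F2. Its DMSO means in WT and F2 lay under the mean needed for the test. Nothing is therefore read from the rise of STRA6 in WT and F2, and the counts and medians above hold it too. No test linked these values to the level of PRAME.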

How the data were processed

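Gene counts were made from reads aligned to hg19, with Trim Galore 0.4.4, STAR 2.6.0a, HTSeq and DESeq2, per the submitters' processing notes. The annotation and strand setting are not given in the sources used here. The authors deposited 1 table whose signal values are gene counts divided by a size factor (0.812 to 1.145). Multiplied by the step of their library, 100% of values were whole reads (tolerance 0.0001), and depth was 25709489 to 39314860 reads. The count test on those reads is an alternative.

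limma 3.58.1 in R 4.3.3 (lmFit, eBayes with trend) was run on log2(value + 1) for the 16154 genes with a mean of at least 10, as 6 group means and 11 contrasts without a replicate block. Log2 changes on this scale understate those of low genes. Passing required a Benjamini-Hochberg adjusted p below 0.05 together with a log2 change of 1 or more in size. A group with no library over 3 reads was at the floor. Alternatives were other pseudocounts (0.5, 5), filters, scaling and samples in the fit, no size limit, the block, leaving out each library, edgeR 4.0.16 and DESeq2 1.42.0. edgeR on genes with a mean of at least 1 was chosen after seeing the data. The tests were tried on simulated data. The 38 genes and the background lists were chosen with earlier results of these data known. From the background lists, up to 4 genes with a mean of at least 50 and the largest changes among those passing in a treatment contrast were named.

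Same-numbered libraries of WT and F2 in DMSO deviated together (correlations 0.182, 0.108 and 0.375). All 3 correlations were over 0.1 in only 2 of 15 pairs of groups. The labels state no pairing, and whether the numbers pair the libraries was not tested. The block changed no call in F2 against WT in DMSO. GENCODE v29 and RefSeq gave names, exon lengths, shared windows and promoters, and coordinates are of GRCh38.p14, not of the deposited build. Of the 38 genes, 33 matched the promoter table.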

Additional observations from a re-analysis of the deposited data

Results flagged for a closer look

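For PRAME, the change with tazemetostat differed between E1 and WT by a test of the difference itself, at 1.44 on the log2 scale (limma adjusted p = 0.027). WT went from 111 ± 9.23 to 4.58 ± 2.97 normalized counts and E1 from 63.2 ± 0.356 to 6.62 ± 0.825 (SD, n = 3). Over the other settings the difference ran from 0.87 to 1.78, and the call was lost in 6 of 23 of them. One of these was edgeR on genes with a mean of at least 1, where it was 1.26 (edgeR adjusted p = 0.059).

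For SYCP2, it differed between F2 and WT, at 1.23 on the log2 scale (limma adjusted p = 0.0013). WT went from 244 ± 24.7 to 71.1 ± 15.6 and F2 from 306 ± 44.2 to 207 ± 24.3. Over the other settings the difference ran from 1.05 to 1.37 and passed in each.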

How the results depend on the processing

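Single-gene results of PRAME, SYCP2 and STAG3 were recomputed 615 times, and 580 kept direction and side of the threshold, 27 lost the call, 8 gained it and none reversed. The count of the 38 genes past the threshold changed mainly with the genes tested. With tazemetostat in WT it was 3, and 5 with a mean of at least 1, 6 with no filter and 5 with edgeR at a mean of at least 1. In E1 it was 1, and 2 without the size limit and 4, 6 and 4 with those tests; it ranged from 1 to 2 when a replicate was left out (2 without E1 DMSO replicate 2 or E1 tazemetostat replicate 1). In F2 it was 1, and 2, 5, 5 and 4. For E1 against WT under tazemetostat it was 0, and 1, 2, 2 and 1. For F2 against WT under tazemetostat it was 3, but 1 with a pseudocount of 5, with only those groups in the fit, with edgeR and with DESeq2, 5 with a mean of at least 1, 7 with no filter, and 1 to 3 leaving out a replicate (1 without WT tazemetostat replicate 3 or F2 tazemetostat replicate 3). For the response difference of E1 minus WT it was 1, but 2 without the size limit or filter, 0 with DESeq2 or edgeR at a mean of at least 1, and 0 to 2 leaving out a replicate. For E1 against F2 in DMSO it was 2, and 4 in each of the wider tests.

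For the lists with tazemetostat in WT, E1 and F2, counts without the size limit were 7 in E1 and 8 in F2 for further cancer-testis genes, 15 in WT and 12 in F2 for germline genes, 3, 2 and 3 for type II MAGE genes, 14, 13 and 9 for repressors, 7, 4 and 5 for DNA methylation genes and 2, 1 and 2 for the ligase. Further cancer-testis genes gave 11, 6 and 4 with no filter and, in E1 and F2, 3 and 4 with a mean of at least 1, by limma or edgeR. Germline genes in E1 gave 10 with no filter and 3 to 6 leaving out a replicate (3 without E1 DMSO replicate 3). Repressors gave 2 in WT at the same total, and 1 to 2 in WT and 0 to 1 in F2 leaving out a replicate. DNA methylation genes gave 2 in E1 at the same total and with either edgeR test, and in F2 2 at the same total, with a mean of at least 1 and with no filter and 3 with edgeR at a mean of at least 1, and 1 to 2 in both clones leaving out a replicate. The ligase gave 0 to 1 in WT leaving out a replicate.

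With the replicate number as a block, F2 against WT under tazemetostat gave 2 genes, without STAG3, and no other count of the 38 genes changed. Same-numbered libraries of WT under tazemetostat and F2 in DMSO also deviated together (0.164, 0.168 and 0.372). Both enter the response difference of F2 minus WT, where SYCP2 passed with the block too (1.23, limma adjusted p = 0.0014). Over all 15 pairs of groups the correlations ran from -0.303 to 0.375. The causes were not tested. Depth limits the 35 untested genes: a group with 3 reads or fewer per library allows only a bound.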
